A study of Mus musculus with 14 samples.

Results

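Immunoglobulin gene segments and constant genes were examined in RNA sequencing of 14 bulk samples of mouse bone marrow cells. Members were the symbols beginning with Ighv, Ighd, Ighj, Igkv, Igkj, Igkc, Iglv, Iglj or Iglc, together with Ighm, Igha, Ighe, Ighg1, Ighg2b, Ighg2c, Ighg3 and Jchain, whose raw counts summed to 50 or more over all libraries. Of 396 symbols with such names, 147 were members, of 54532 symbols in the table. A further 25 symbols had between 1 and 49 counts, and 224 had 0 counts in every library. Among the members were 71 of 185 heavy chain V symbols, 51 of 160 kappa V symbols and all 3 lambda V symbols. All 4 heavy J, all 5 kappa J and 2 of 5 lambda J segments were members, while none of the 20 heavy D segments was. The constant genes Ighm, Ighd, Igha, Ighg2b, Ighg2c, Ighg3, Igkc, Iglc1, Iglc2 and Iglc3 and the gene Jchain completed the set, and Ighe, Ighg1 and Iglc4 had 0 counts throughout. Members were thus selected on raw counts summed over the 14 libraries, and a segment abundant in 1 library sufficed for entry. Just inside the limit were Ighv3-8, Iglj3 and Igkv17-121, with sums of 55, 57 and 59 counts, and just outside it were Ighv1-30, Ighv1-24 and Ighv1-44, with sums of 49, 47 and 46 counts.

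The samples were LT-HSC, long-term haematopoietic stem cells, and GMP, granulocyte-monocyte progenitors, sorted from bone marrow of C57BL/6 mice. There were 3 AML1/ETO LT-HSC, 4 control LT-HSC, 3 AML1/ETO GMP and 4 control GMP libraries. AML1/ETO mice, with the genotype Runx1-Runx1t1, carried the fusion of t(8;21) acute myeloid leukaemia, which Mx1-Cre, a recombinase under an interferon-responsive promoter, switched on. The control genotype was WT, and whether these mice carried Mx1-Cre is not given in the sources used here. Poly(I:C), the interferon inducer that activates this recombinase, was listed in 4 doses of 5 mg/kg for every sample, controls included. Mx1-Cre acts in many interferon-responsive cells and is not restricted to stem cells. Ages, sort markers and whether each library had its own mouse are not stated. All p-values therefore rest on the spread among these libraries alone, and that spread may be technical. Libraries held 13210952 to 19403864 counts. The labelled cell types had their defining genes: Mpo, the granule peroxidase of GMPs, stood at 12500 to 24100 CPM (counts scaled to a common library size by TMM) in the 7 GMP libraries and at 31.9 to 522 CPM in the 7 LT-HSC libraries. Procr, a surface marker of stem cells, stood at 38.8 to 128 CPM in 6 LT-HSC libraries and at 0 in control LT-HSC replicate 3.

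Antibodies are made by B lineage cells, which join V, D and J segments of the heavy chain locus, and V and J segments of the kappa or lambda locus, into 1 expressed gene per chain. A clone therefore uses 1 V segment per chain. The constant gene downstream sets the class, with Ighm for IgM, Ighd for IgD, Igha for IgA and the Ighg genes for IgG. Jchain encodes the small protein that links secreted IgM and IgA into polymers and is characteristic of antibody-secreting cells. Incompletely joined and unjoined heavy chain genes can also be transcribed, giving RNA that encodes no antibody.

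The V segments on which the results turn are given here as the last 60 coding bases of the germline segment, read from mm10 transcripts of GENCODE M21. Capitals mark the codon of the conserved cysteine that ends the framework, after which the antigen-contacting CDR loop begins. The first 4 led V use in control LT-HSCs, and the last 2 led it in AML1/ETO GMP replicate 3.
Ighv7-1, chr12:113896408-113896467, minus strand: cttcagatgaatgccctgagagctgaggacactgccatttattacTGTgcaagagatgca
Igkv15-103, chr6:68437866-68437925, plus strand: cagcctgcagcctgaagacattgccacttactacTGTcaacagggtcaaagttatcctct
Ighv11-2, chr12:114048241-114048300, minus strand: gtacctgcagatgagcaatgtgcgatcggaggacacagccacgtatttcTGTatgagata
Igkv14-126, chr6:67896583-67896642, plus strand: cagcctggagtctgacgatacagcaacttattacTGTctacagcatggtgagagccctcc
Ighv5-12, chr12:113702124-113702183, minus strand: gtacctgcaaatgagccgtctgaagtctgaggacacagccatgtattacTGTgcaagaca
Igkv6-23, chr6:70260409-70260468, minus strand: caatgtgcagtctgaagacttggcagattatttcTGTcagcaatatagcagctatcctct
The heavy chain segments keep 8 to 12 bases after the cysteine codon and the kappa segments 23, since more of that loop is encoded by the V segment in a light chain. Many V segments resemble each other. Over 125 V members, the closest other segment of the same chain had a median identity of 91.8% (range 57.9 to 98.6%), and 31 had a neighbour at 95% identity or more. The treatment of reads that match several segments is not stated, so counts of single segments may be split between near-identical copies or lost. The 2 most counted kappa segments are well separated: Igkv15-103 was 74.7% identical to its closest relative and Igkv14-126 89.1%. The heavy segments Ighv7-1 and Ighv11-2 were 89.0% and 75.7% identical to theirs.

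Immunoglobulin RNA was far more abundant in control LT-HSCs than in any other group, and Ighm, Igkc and Jchain were lower in AML1/ETO LT-HSCs. Members took 0.093, 0.0172 and 0.0376% of the counts of AML1/ETO LT-HSC libraries, against 2.26, 10.4, 1.92 and 2.76% in control LT-HSC libraries. In AML1/ETO GMPs the shares were 0.0185, 0.00105 and 0.142%, and in control GMPs 0.0133, 0.0154, 0.0157 and 0.013%. The LT-HSC groups did not overlap, and control LT-HSC replicate 2 stood far above its group. The GMP groups overlapped, with the AML1/ETO libraries both below and above the control libraries. In bulk samples, fewer antibody-producing cells and less RNA per cell cannot be told apart.

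The heavy chain constant gene Ighm (chromosome 12, 113418558 to 113422730) had 478, 66.4 and 135 CPM in the AML1/ETO LT-HSC libraries, against 8480, 49200, 8650 and 12300 CPM in the control LT-HSC libraries. The kappa constant gene Igkc (chromosome 6, 70726435 to 70726966) had 112, 14.3 and 74.3 CPM in the AML1/ETO LT-HSC libraries, against 4200, 22900, 3340 and 4360 CPM in the control LT-HSC libraries. Jchain (chromosome 5, 88519809 to 88527891) had 34, 9.88 and 17.2 CPM in the AML1/ETO LT-HSC libraries, against 548, 4730, 793 and 728 CPM in the control LT-HSC libraries. For each of these genes the lowest control library lay above the highest AML1/ETO library. In edgeR's quasi-likelihood test, Ighm fell by 6.31 ± 1.09 on the log2 scale (SE, adjusted p = 0.00946). Igkc fell by 6.91 ± 1.13 (edgeR adjusted p = 0.00807), and Jchain by 6.26 ± 1.03 (edgeR adjusted p = 0.00838). Without AML1/ETO LT-HSC replicate 2 the adjusted p of Ighm was 0.0627 and that of Jchain 0.0627, and without AML1/ETO LT-HSC replicate 3 that of Ighm was 0.0561. Without control LT-HSC replicate 2, the library with the most immunoglobulin counts, the log2 fold changes of Ighm, Igkc and Jchain were −5.34, −5.80 and −4.99 and each was still called (edgeR adjusted p = 0.0135, 0.00981 and 0.00515).

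**Figure D1:**
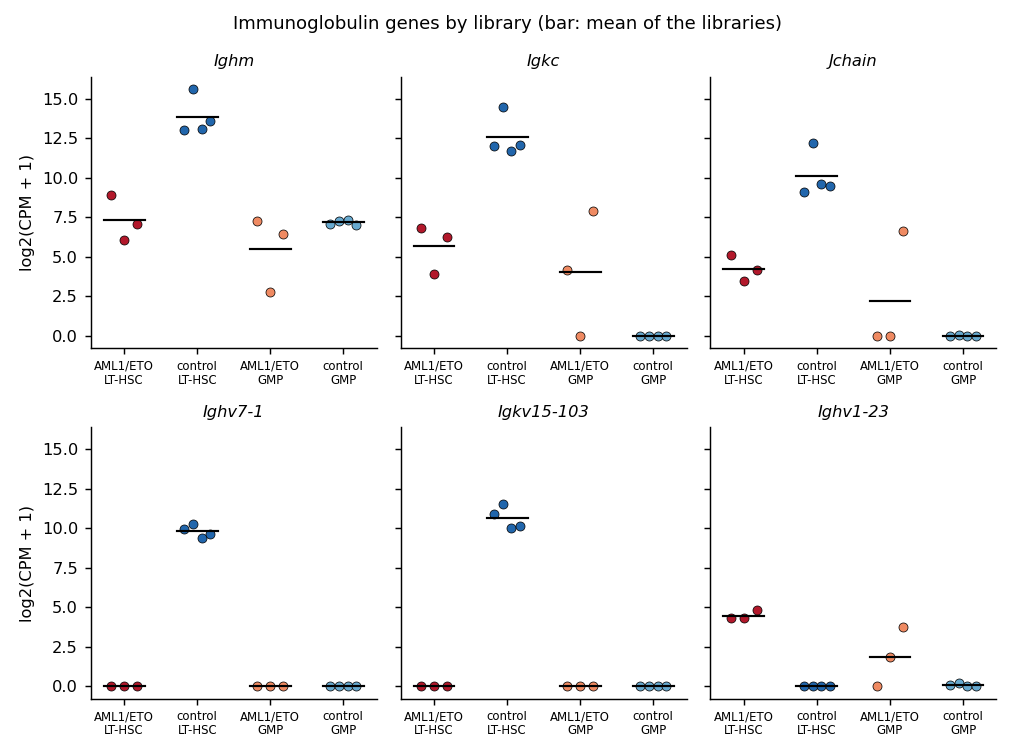
Levels of 6 immunoglobulin genes as log2(CPM + 1) in each of the 14 libraries, by group, where each dot is a library and each bar the mean of the group on that scale. Ighm, Igkc and Jchain were highest in the 4 control LT-HSC libraries, Ighv7-1 and Igkv15-103 had counts in those 4 alone, and Ighv1-23 was at 0 there but between 18.6 and 26.7 CPM in AML1/ETO LT-HSCs.

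Over the whole table, 35 of the 147 members passed edgeR's filter on low counts in LT-HSCs, and 11 were called lower and 7 higher in AML1/ETO LT-HSCs at an adjusted p under 0.05, while 17 were not called. Of 14589 genes tested, 4.69% were called lower and 7.59% higher. The median log2 fold change was −6.31 over the 35 members and 0.03 over all genes. Most members were too sparse to be tested, and those that passed the filter did so largely through the group in which they were high, so these counts describe the members and carry no weight as a share. A lower mean count in AML1/ETO LT-HSCs was found for 135 of the 147 members, 107 of which had 0 counts in all 3 libraries of that group. Control LT-HSC replicate 2 held the highest count of 93 members and the only counts of 46. Without that library 7 members were called lower and 8 higher.

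Among V segments, the heavy segment Ighv7-1 and the kappa segment Igkv15-103 were present in every control LT-HSC library and in no other. The same held for Ighv1-55, Iglv1 and Iglv3. As background, Ighv7-1 encodes the heavy chain V region of the T15 antibodies against phosphorylcholine, typical of B-1 cells. It had 0 counts in the AML1/ETO LT-HSC libraries, against 17066, 18296, 10318 and 11477 counts in the control LT-HSC libraries, at least 14200-fold lower (floor of 3 counts over the group, edgeR adjusted p = 0.000399). Igkv15-103 also had 0 counts in the AML1/ETO LT-HSC libraries, against 32144, 43780, 15444 and 16430 counts in the control LT-HSC libraries, at least 26900-fold lower (edgeR adjusted p = 0.000766). Both were also at 0 in all 7 GMP libraries. The 4 control libraries were closer to each other in these segments than in Ighm or Igkc: their CPM ran from 675 to 1240 for Ighv7-1 and from 1010 to 2980 for Igkv15-103. Ighv1-55 had 0 counts in the AML1/ETO LT-HSC libraries, against 1371, 9773, 3660 and 1868 counts in the control LT-HSC libraries, at least 4280-fold lower (edgeR adjusted p = 0.00434). The 3 calls held without any 1 library.

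Ighv11-2 and Igkv14-126 showed both genotypes with counts. As background, these segments form a heavy and light chain pair of B-1 cell antibodies that bind phosphatidylcholine. Ighv11-2 had 177, 0 and 269 counts in the AML1/ETO LT-HSC libraries, against 1987, 21454, 306 and 12877 counts in the control LT-HSC libraries. Igkv14-126 had 553, 0 and 417 counts in the AML1/ETO LT-HSC libraries, against 3951, 48125, 1545 and 20699 counts in the control LT-HSC libraries. The same libraries were high, low or empty for both: AML1/ETO LT-HSC replicate 2 had no count of either, and control LT-HSC replicates 2 and 4 had the most. Bulk counts cannot show that a heavy and a light chain came from the same cell. Neither gene passed the test, with log2 fold changes of −5.98 ± 1.78 and −5.88 ± 1.76 (edgeR adjusted p = 0.0638 and 0.0657). Without control LT-HSC replicate 3 both did (edgeR adjusted p = 0.0246 and 0.0347).

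The remaining members called lower were a mixture of chains. Ighv6-6 had 0, 7 and 0 counts in the AML1/ETO LT-HSC libraries, against 0, 1318, 1295 and 1389 counts in the control LT-HSC libraries (log2 fold change −8.54 ± 2.19, edgeR adjusted p = 0.0405). Iglc1, a lambda constant gene, had 21, 0 and 6 counts in the AML1/ETO LT-HSC libraries, against 36, 13629, 200 and 6230 counts in the control LT-HSC libraries (log2 fold change −9.09 ± 2.34, edgeR adjusted p = 0.0408). Iglv1, the V segment usually joined to it, was at 0 in AML1/ETO LT-HSCs and at least 9220-fold lower (edgeR adjusted p = 0.0448). Ighv5-16 and Igkv12-89 were at 0 in AML1/ETO LT-HSCs and in 1 control library each, and were at least 3310-fold and 1420-fold lower (edgeR adjusted p = 0.0472 and 0.0492). These 5 calls were lost when any 1 AML1/ETO LT-HSC library was left out.

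V use differed widely among the control LT-HSC libraries. The number of V members with 10 or more counts was 19, 13 and 17 in AML1/ETO LT-HSCs and 37, 102, 18 and 25 in control LT-HSCs. Of 125 V members, 69 reached 10 counts in 1 control LT-HSC library, 32 in 2, 7 in 3 and 7 in all 4. Those shared by all 4 were Ighv1-55, Ighv7-1, Ighv11-2, Igkv14-126, Igkv15-103, Iglv1 and Iglv3. A few segments held most counts. The effective number of heavy V segments, the inverse of the summed squared shares, was 5.43, 6.84 and 6.16 in AML1/ETO LT-HSCs and 3.94, 12.5, 3.83 and 4.21 in control LT-HSCs. For kappa V it was 2.11, 1.0 and 1.99 in AML1/ETO LT-HSCs and 2.87, 7.59, 3.89 and 3.62 in control LT-HSCs. In control LT-HSC replicate 1, Ighv7-1 took 48.2% of heavy V counts (exact 95% interval 47.7 to 48.7%) and Igkv15-103 57.3% of kappa V counts. In control LT-HSC replicate 4, Ighv11-2 took 34.9% and Igkv14-126 37.4%. Intervals cover counting error only.

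**Figure D2:**
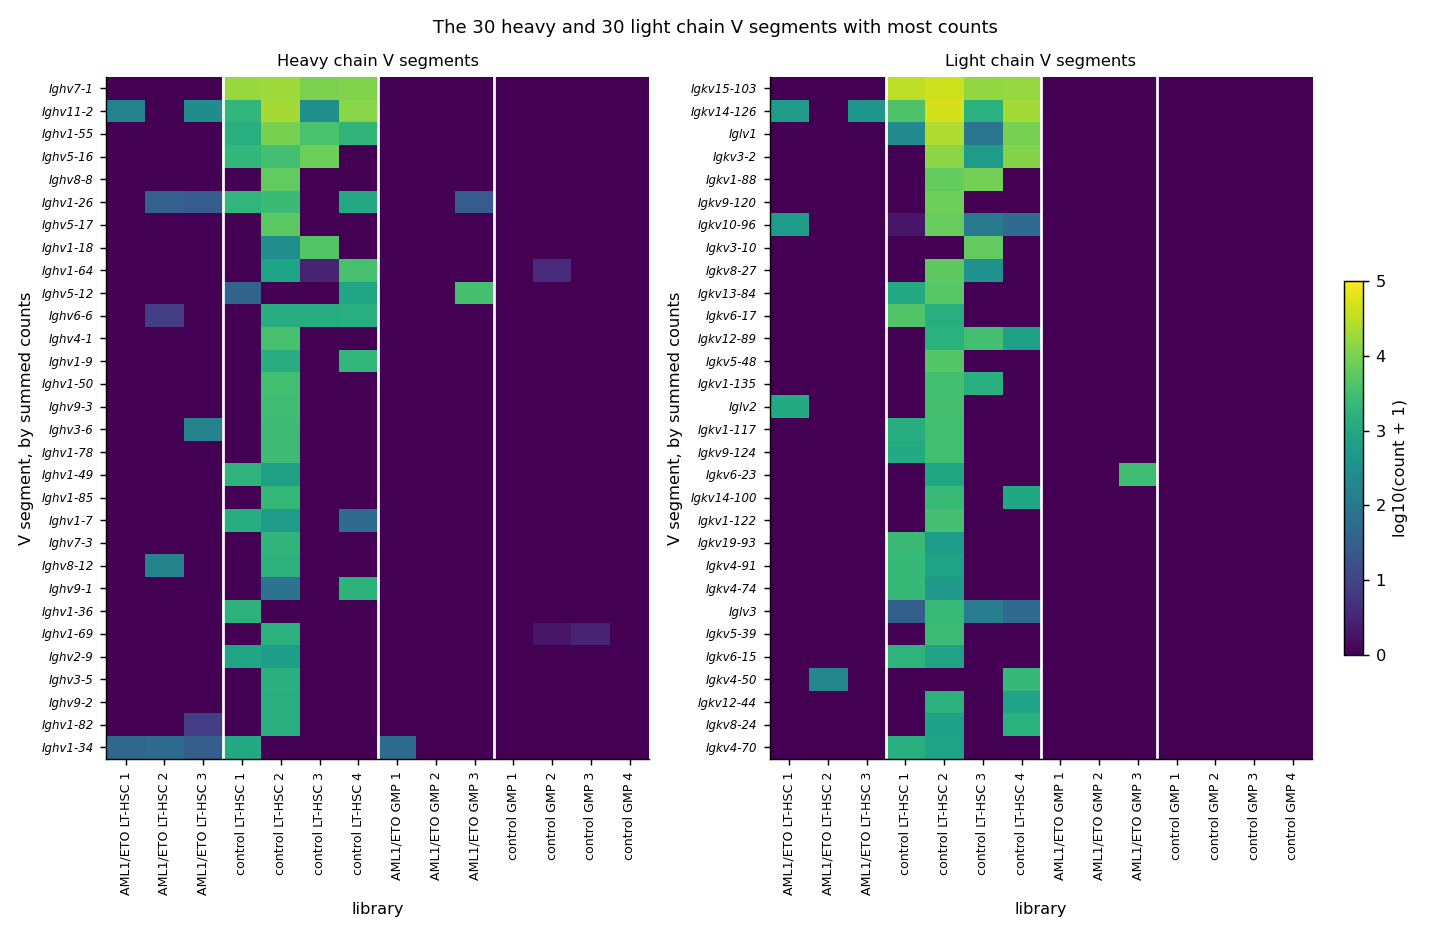
Heat maps of log10(count + 1) for the 30 heavy chain and 30 light chain V segments with the highest summed counts, with a row per segment, a column per library and white lines between the groups. Ighv7-1 and Igkv15-103 fill all 4 control LT-HSC columns, most other segments fill 1 or 2 of them, and AML1/ETO GMP replicate 3 is brightest at Ighv5-12 and Igkv6-23.

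In AML1/ETO LT-HSCs heavy V segments of 1 stretch of the locus were shared between libraries, and kappa V segments mostly were not. Of the 71 heavy V members, 10 reached 10 counts in all 3 AML1/ETO LT-HSC libraries, and 3 did so in all 4 control LT-HSC libraries. Of the 51 kappa V members, 0 did so in all 3 AML1/ETO LT-HSC libraries and 2 in all 4 control LT-HSC libraries. The 10 shared heavy segments were Ighv1-23, Ighv1-27, Ighv1-28, Ighv1-32, Ighv1-33, Ighv1-34, Ighv1-38, Ighv1-41, Ighv1-42 and Ighv1-43. Ighv1-23 led heavy V use in AML1/ETO LT-HSC replicates 2 and 3, with 27.8 and 31.0% of the counts. AML1/ETO LT-HSC replicate 1 was led by Ighv3-4, with 625 counts (28%) and 0 in the other 13 libraries, and Ighv5-4, with 594 counts there, 452 in control LT-HSC replicate 2 and 0 elsewhere. Neither of these 2 segments passed the filter on low counts. In AML1/ETO LT-HSC replicate 1, the kappa V counts were almost all from Igkv10-96, with 591 counts, and Igkv14-126, with 553. Replicate 2 had 198 kappa V counts, all from Igkv4-50. In replicate 3 they were from Igkv6-32, with 492 counts, and Igkv14-126, with 417. Over the 125 V members, Pearson's r of log2(count + 1) ran from 0.44 to 0.59 between the 3 AML1/ETO LT-HSC libraries, from −0.47 to 0.05 between an AML1/ETO and a control library, and from 0.01 to 0.47 between control libraries. These values are descriptions, and they rest on segments chosen for their counts, those 10 included, and on libraries of unequal immunoglobulin depth.

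The light chain and the class also varied by library. Kappa made up 57.5, 95.9 and 98.5% of light chain constant counts in AML1/ETO LT-HSCs and 99.3, 92.3, 99.4 and 90.5% in control LT-HSCs. The library apart was AML1/ETO LT-HSC replicate 1 (exact 95% interval 55.8 to 59.2%), where Iglc2 had 1360 counts and Iglv2 1128. Iglc2 had 1360, 0 and 13 counts in the AML1/ETO LT-HSC libraries and 437, 7569, 0 and 525 counts in the control LT-HSC libraries, and was not called (log2 fold change −2.25 ± 2.23, edgeR adjusted p = 0.63). Iglc3 had 3, 8 and 0 counts in the AML1/ETO LT-HSC libraries and 31, 6805, 116 and 0 counts in the control LT-HSC libraries, and was not called (edgeR adjusted p = 0.099).

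Ighm was the leading heavy chain constant gene in every library but 1. Per kilobase of exon it made up 100, 100 and 99.9% of the heavy constant counts in AML1/ETO LT-HSCs, and 83.1, 93, 98.2 and 100% in control LT-HSCs. Switched classes were present in 3 of the 4 control LT-HSC libraries, and differed between them. Control LT-HSC replicate 1 had 11742 counts of Ighg2b and 14936 of Ighg2c, and 0 of Igha. Control LT-HSC replicate 2 had 35717 counts of Igha, 30083 of Ighg2b, 3057 of Ighg2c and all 4762 counts of Ighg3. Control LT-HSC replicate 3 had 3005 counts of Igha and 172 of Ighg2b. In AML1/ETO LT-HSCs the switched classes came to 2 counts of Igha, in replicate 3. Ighg2b, at 0 CPM in the AML1/ETO LT-HSC libraries and at 684, 2050, 11.3 and 0 CPM in the control LT-HSC libraries, did not pass the test (edgeR adjusted p = 0.0775), and Igha, Ighg2c and Ighg3 were too sparse to be tested. Ighd had 0 counts in the AML1/ETO LT-HSC libraries and 28, 0, 138 and 0 counts in the control LT-HSC libraries.

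**Figure D3:**
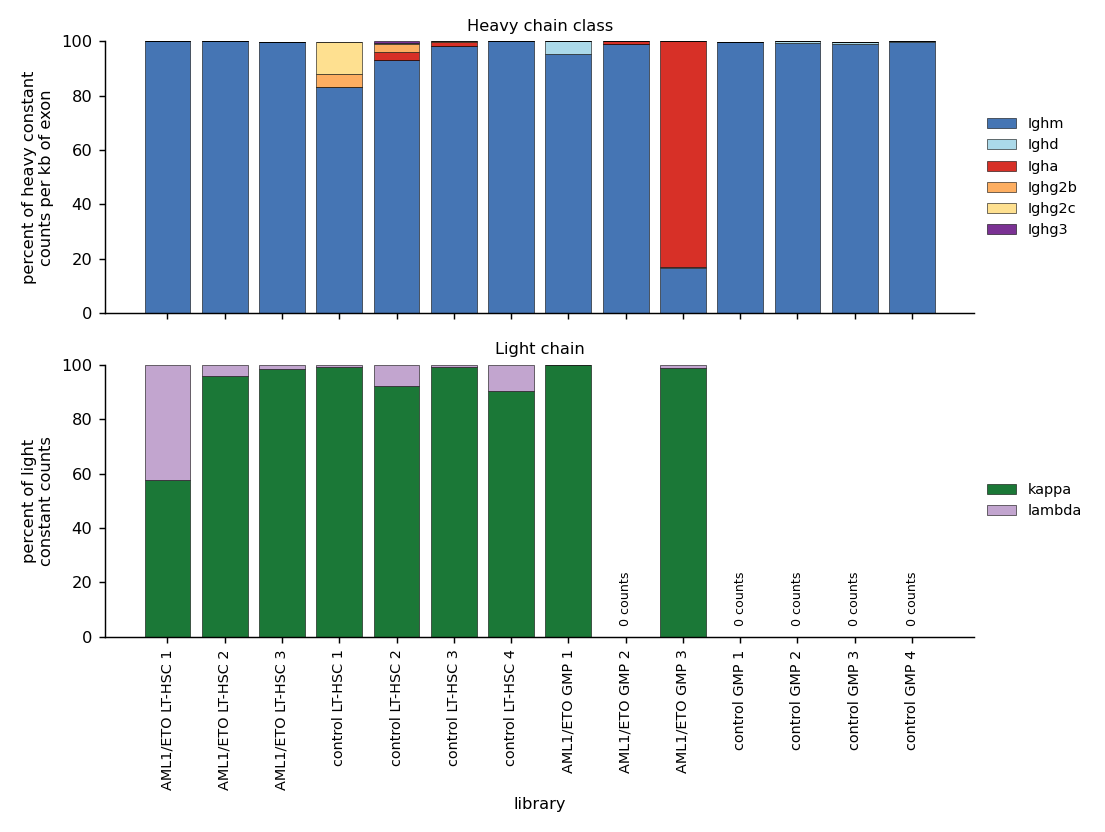
Stacked bars per library of heavy chain class, as percent of heavy constant counts per kilobase of exon, above, and of kappa and lambda, as percent of light chain constant counts, below. Igha takes 83.1% of the upper bar in AML1/ETO GMP replicate 3 and Ighm leads in the other libraries, while AML1/ETO LT-HSC replicate 1 has the largest lambda share, and 5 GMP libraries had 0 light chain constant counts.

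All 7 members called higher in AML1/ETO LT-HSCs were heavy V segments of the Ighv1 family lying within 199 kb on chromosome 12. They were Ighv1-23, Ighv1-27, Ighv1-28, Ighv1-32, Ighv1-33, Ighv1-41 and Ighv1-43, of which 5, all but Ighv1-23 and Ighv1-43, are annotated as pseudogenes in GENCODE M21. Ighv1-23 (chromosome 12, 114764450 to 114764883) had 312, 250 and 437 counts in AML1/ETO LT-HSCs, against 0 in all 4 control LT-HSC libraries, at least 443-fold higher (edgeR adjusted p = 0.00427). Ighv1-43 had 148, 87 and 86 counts in AML1/ETO LT-HSCs, against 0 in control LT-HSCs, at least 143-fold higher (edgeR adjusted p = 0.0193). Ighv1-27 had 116, 80 and 104 counts in AML1/ETO LT-HSCs, against 0 in control LT-HSCs, at least 133-fold higher (edgeR adjusted p = 0.0202). The other 4 had 21 to 72 counts per AML1/ETO LT-HSC library, and were at least 44.7-fold to 56.1-fold higher (edgeR adjusted p = 0.0391 to 0.0409). Ighv1-23 remained called when any 1 library was left out, and the other 6 were lost without any 1 AML1/ETO LT-HSC library. Ighv1-28, Ighv1-32, Ighv1-33 and Ighv1-41 were also lost without control LT-HSC replicate 4, and with no filter on low counts (edgeR adjusted p = 0.0843 to 0.1).

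The stretch from Ighv1-23 to Ighv1-44 (chromosome 12, 114764450 to 114963813, 199 kb) was singled out after these values were seen, and is described with no test. It holds 22 annotated V symbols, 12 of them pseudogenes, and no other gene of GENCODE M21. Of the 22, 13 were members, including 6 of the 7 pseudogenes among heavy V members. A count was present in all 3 AML1/ETO LT-HSC libraries for 14 of the 22 symbols, 12 of which had 0 counts in all 4 control LT-HSC libraries. Outside the stretch this held for 1 of the 71 heavy V symbols with any count, the pseudogene Ighv1-79. The 5 V symbols on either side, from Ighv1-19 to Ighv1-22 and from Ighv1-45 to Ighv8-4, had 0 counts in all 14 libraries.

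Summed over the stretch, AML1/ETO LT-HSCs had 908, 776 and 950 counts and control LT-HSCs 5694, 3664, 0 and 1044. The control counts were of another kind, since they came from 5 segments, none of them a pseudogene: Ighv1-26, Ighv1-34, Ighv1-36, Ighv1-39 and Ighv1-42, each with 979 counts or more in the libraries that had any. Ighv1-26, the most counted of these, had 0, 33 and 27 counts in the AML1/ETO LT-HSC libraries and 1949, 2554, 0 and 1044 counts in the control LT-HSC libraries. The stretch held 38.8, 78.4 and 64.5% of the heavy V counts of AML1/ETO LT-HSCs, against 16.1, 3.19, 0 and 2.83% in control LT-HSCs. In AML1/ETO GMPs the stretch had 58, 84 and 420 counts, which were 100, 100 and 11% of the heavy V counts. In control GMPs it had 18, 11, 7 and 7 counts, which were 56.2, 55, 63.6 and 38.9%. Of these control GMP counts, 17, 5, 7 and 7 were of Ighv1-41. The control GMP shares rest on few counts, with exact 95% intervals reaching from 17.3 to 89.1%. A high share was thus not confined to AML1/ETO LT-HSCs. Members of the stretch resembled other segments at a median identity of 92.9% (88.2 to 98.0%), with Ighv1-23 98.0% identical to Ighv1-15, and reads of the opposite strand cannot be told apart.

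**Figure D4:**
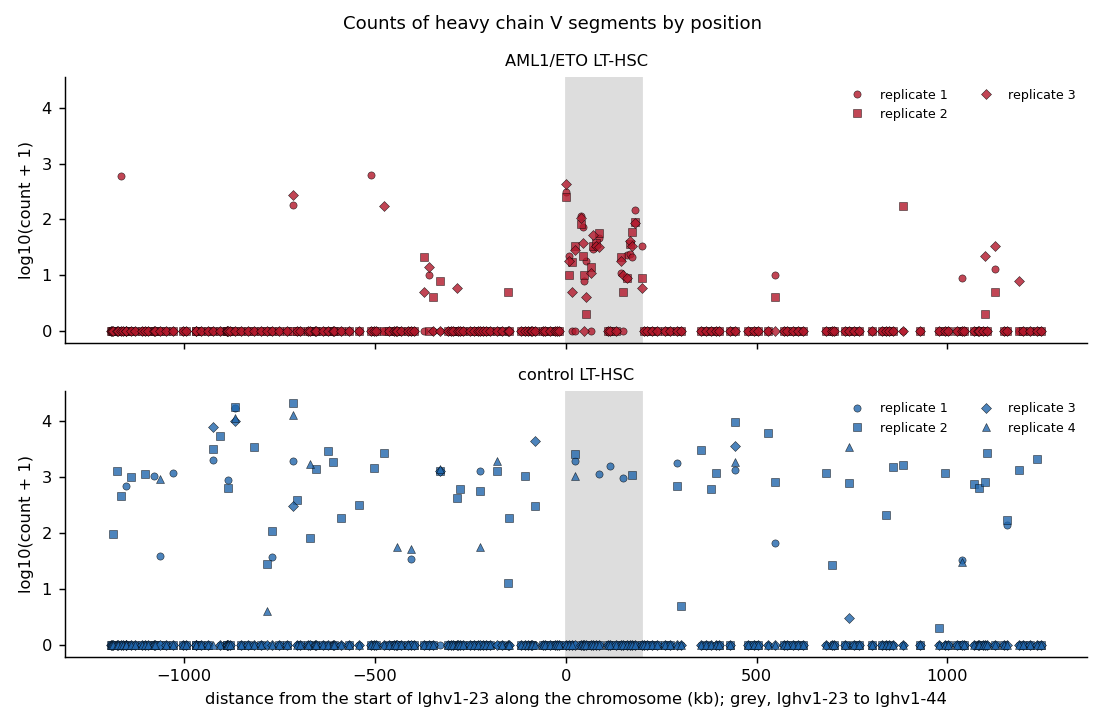
Counts of each heavy chain V symbol as log10(count + 1) against its distance in kilobases from the start of Ighv1-23, for the 3 AML1/ETO LT-HSC libraries above and the 4 control LT-HSC libraries below, with the 199 kb from Ighv1-23 to Ighv1-44 in grey. In AML1/ETO LT-HSCs 14 of the 22 symbols in grey have counts in all 3 libraries, against 1 symbol elsewhere, although 16 symbols elsewhere have counts in some library, up to 625 for Ighv3-4 in replicate 1, while in control LT-HSCs the counted segments are spread over the locus and are higher.

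In GMPs, immunoglobulin RNA was sparse and AML1/ETO libraries were unlike each other. Of 147 members, 3 passed the filter on low counts, and 1 was called lower and 0 higher in AML1/ETO GMPs (edgeR; at an unadjusted p under 0.05 also 1 and 0). Of 13981 genes tested, 3.96% were called lower and 5.47% higher. Ighm had 2364, 89 and 1416 counts in AML1/ETO GMPs, against 2528, 2851, 2462 and 2229 counts in control GMPs, with no call (log2 fold change −0.79 ± 0.77, edgeR adjusted p = 0.602). The 4 control libraries lay close together, with AML1/ETO GMP replicate 1 among them and the other 2 below. Igkc had 260, 0 and 3823 counts in AML1/ETO GMPs and 0 in all 4 control GMP libraries, and did not pass the filter. Ighd, tested as well, had 117, 0 and 34 counts in AML1/ETO GMPs and 6, 11, 19 and 7 counts in control GMPs (edgeR adjusted p = 0.356).

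AML1/ETO GMP replicate 3 stood apart. Ighv5-12 had 3287 counts there, 86.7% of its heavy V counts, and Igkv6-23 had 2970, all of its kappa V counts. The same library had 10092 counts of Igha and 1599 of Jchain, against 1 count of Igha in the other 2 AML1/ETO GMP libraries together and none of Jchain. Per kilobase of exon, Igha made up 83.1% and Ighm 16.5% of its heavy constant counts. One V segment per chain, Igha and Jchain thus led in the same library, although bulk counts cannot place them in the same cell. Its heavy V counts also included 204 of Ighv1-23, against 0 and 41 in AML1/ETO GMP replicates 1 and 2. In AML1/ETO GMP replicate 1 the V counts were 58 of Ighv1-34 and 86 of Igkv14-111.

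Control GMPs carried Ighm without a light chain. Igkc, Iglc1, Iglc2 and Iglc3 were at 0 in all 4 libraries, Jchain had 1 count in all, and the only light chain V counts were 5 of Igkv14-111, in control GMP replicate 4. Heavy V counts were also few. Per 100 heavy constant counts there were 27.8, 104 and 63.7 heavy V counts in AML1/ETO LT-HSCs, 14.4 to 20.8 in control LT-HSCs, 2.34, 93.3 and 32.8 in AML1/ETO GMPs and 0.363 to 0.75 in control GMPs. The 4 heavy J segments were present in each control GMP library, and the kappa and lambda J segments were at 0 in all 4. Ighj1 had 10, 23, 22 and 14 counts in control GMPs and 0 in the other 10 libraries, and was the member called lower in AML1/ETO GMPs (at least 15.7-fold, edgeR adjusted p = 0.0286). When any 1 control GMP library was left out, 0 members were called lower, and the edgeR adjusted p of Ighj1 was 0.0909 without control GMP replicate 1. Ighj2, Ighj3 and Ighj4 had 2 to 12 counts in control GMPs and 0 in AML1/ETO GMPs, and were not tested. These counts are small, and heavy J segments are only 48 to 100 bases long in the annotation.

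Within control mice, GMPs against LT-HSCs, 46 members were tested, and 25 were called lower and 2 higher in GMPs. Of 16116 genes tested, 10.6% were called lower and 14% higher. Here too members passed the filter largely through the group in which they were high, with 129 of the 147 members at 0 in every control GMP library. These counts therefore describe the members and carry no weight as a share. This comparison shares its control LT-HSC libraries with the genotype comparison above. Ighm had 135, 153, 160 and 129 CPM in control GMPs, against 8480, 49200, 8650 and 12300 CPM in control LT-HSCs, and fell by 7.09 ± 1.02 on the log2 scale (edgeR adjusted p = 0.000245). Igkc was at 0 in control GMPs, at least 203000-fold lower (edgeR adjusted p = 0.000615). Igkv14-126 and Ighv11-2 were at 0 in control GMPs and were called as well, at least 29200-fold and 14400-fold lower (edgeR adjusted p = 0.00183 and 0.00251). The 2 called higher were Ighj1, at least 20.7-fold (edgeR adjusted p = 0.0194), and Ighv1-41, with 17, 5, 7 and 7 counts in control GMPs against 0 in control LT-HSCs (at least 10.5-fold, edgeR adjusted p = 0.04). Without control LT-HSC replicate 2, 14 members were called lower and 1 higher. When any 1 of the 6 AML1/ETO libraries was left out, which enter this fit through its shared spread alone, 41 to 48 members were called lower.

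The difference between the AML1/ETO effects in GMPs and in LT-HSCs was tested in 1 fit of all 14 libraries. Of 46 members tested, 4 were called, all with a higher effect in GMPs, against 3.43% called higher and 2.91% called lower of 16116 genes. For the same reason as above, these counts carry no weight as a share. For Ighm the AML1/ETO effect was higher in GMPs by 5.63 ± 1.29 on the log2 scale (edgeR adjusted p = 0.0195). The others were Igkc, Jchain and Igha (edgeR adjusted p = 0.00735, 0.00677 and 0.0426), whose fitted sizes are set by libraries at 0 counts. All but 1 of the Jchain and Igha counts in AML1/ETO GMPs were in replicate 3, and without that library 2 members were called, as was also the case without AML1/ETO LT-HSC replicate 2 or 3.

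Genes of B lineage and antibody-secreting cells were set beside the members, from lists of general knowledge. In AML1/ETO LT-HSCs, 2 of 9 plasma cell genes tested were lower and 0 higher. Sdc1, the syndecan CD138 of plasma cells, had 2.74, 2.22 and 0.671 CPM in the AML1/ETO LT-HSC libraries, against 28.7, 126, 24.7 and 34.1 CPM in the control LT-HSC libraries (log2 fold change −4.71 ± 0.83, edgeR adjusted p = 0.0101). Mzb1, a chaperone of antibody assembly, had 0.894, 1.92 and 1.53 CPM in the AML1/ETO LT-HSC libraries, against 8.68, 161, 22.8 and 63.5 CPM in the control LT-HSC libraries (log2 fold change −5.36 ± 1.05, edgeR adjusted p = 0.0152). Both were highest in control LT-HSC replicate 2, the library with the most immunoglobulin counts. Prdm1 had 3.04, 8.81 and 8.48 CPM in the AML1/ETO LT-HSC libraries, against 2.04, 16.5, 0 and 16.4 CPM in the control LT-HSC libraries. It was not called (log2 fold change −0.27 ± 1.47, edgeR adjusted p = 0.951). Summed CPM of the list was 179 to 334 in AML1/ETO LT-HSCs and 253 to 1010 in control LT-HSCs, and Xbp1, at 232, 179 and 147 CPM in AML1/ETO and 249, 469, 140 and 214 CPM in control LT-HSCs, made up much of it and was not called (edgeR adjusted p = 0.588).

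Of the transcription factors of immunoglobulin genes, 3 of 9 tested were lower and 0 higher. Pou2af1, the coactivator of octamer-driven immunoglobulin promoters, had 1.91, 1.15 and 0.427 CPM in the AML1/ETO LT-HSC libraries, against 29.8, 148, 40.1 and 68.9 CPM in the control LT-HSC libraries (log2 fold change −5.82 ± 0.80, edgeR adjusted p = 0.00431). Irf4, needed for plasma cell formation, had 0, 0.0766 and 0.793 CPM in the AML1/ETO LT-HSC libraries, against 56, 162, 0 and 47 CPM in the control LT-HSC libraries (edgeR adjusted p = 0.0488). Ikzf3, a zinc finger factor of maturing B cells, was called at the same adjusted p of 0.0488 in edgeR, with a log2 fold change of −3.76 ± 1.03. Control LT-HSC replicate 3 had no Irf4, but the highest CPM of Blnk, at 85.6, and of Igll1, at 43.0, among all libraries.

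For the B cell receptor and its signalling, 2 of 9 genes tested were lower and 3 higher in AML1/ETO LT-HSCs. Cd79a, the signalling partner of membrane immunoglobulin, had 0.119, 1.84 and 0.427 CPM in the AML1/ETO LT-HSC libraries, against 44, 98.9, 49.7 and 19.6 CPM in the control LT-HSC libraries (log2 fold change −5.99 ± 0.97, edgeR adjusted p = 0.00786). Blnk, the adaptor below the receptor, fell by 5.22 ± 1.39 on the log2 scale (edgeR adjusted p = 0.0445). The 3 that rose, the kinases Lyn, Syk and Btk, also act in myeloid cells, with log2 fold changes of 1.73 ± 0.17, 1.28 ± 0.27 and 1.0 ± 0.21 (edgeR adjusted p = 0.00132, 0.021 and 0.02).

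The surrogate light chain, which pairs with a new heavy chain in B cell precursors, had 1 of 3 genes tested lower. Igll1 was at 0 in the AML1/ETO LT-HSC libraries, against 15.8, 25.6, 43 and 12.5 CPM in the control LT-HSC libraries, at least 373-fold lower (edgeR adjusted p = 0.00348). Of 6 mature B cell surface genes tested, 0 were lower and 1, Cd37, was higher (edgeR; adjusted p = 0.00246). Ms4a1, the CD20 gene, was at 0 in the AML1/ETO LT-HSC libraries and at 0, 2.04, 0 and 0 CPM in the control LT-HSC libraries. Of 6 recombination genes tested, 0 were called, and Dntt, which adds bases at the joints, had 242, 280 and 183 CPM in the AML1/ETO LT-HSC libraries and 55, 49.9, 207 and 41.9 CPM in the control LT-HSC libraries (edgeR adjusted p = 0.109). Of 4 class switching genes tested, 0 were higher and 2, the DNA repair genes Ung and Msh6, were lower (edgeR adjusted p = 0.0145 and 0.00728). In GMPs these 2 genes were lower as well (log2 fold changes −1.05 ± 0.15 and −0.84 ± 0.12, edgeR adjusted p = 0.0114 and 0.0107), and so was Rag2, a subunit of the V(D)J recombinase, at least 12.9-fold (edgeR adjusted p = 0.0267).

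**Figure D5:**
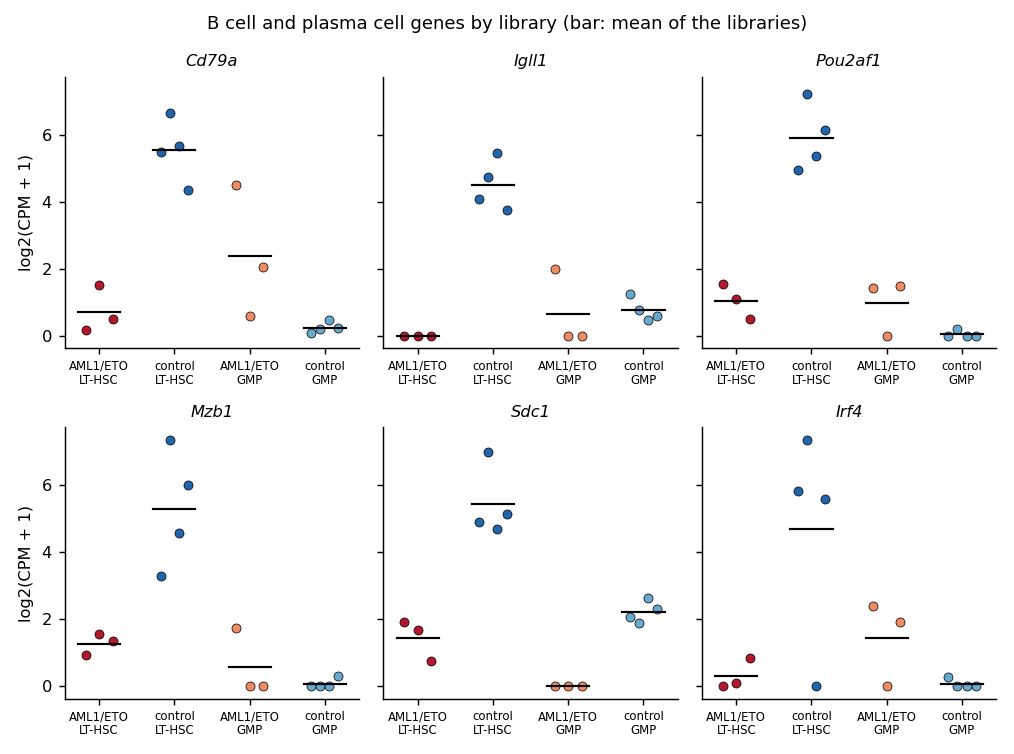
Levels of 6 genes of B cells and plasma cells as log2(CPM + 1) in each library, by group, where each dot is a library and each bar the mean of the group on that scale. All 6 were higher in the control LT-HSC libraries than in AML1/ETO LT-HSCs, except that Irf4 was at 0 in control LT-HSC replicate 3. The genes shown are ones called lower in AML1/ETO LT-HSCs, and genes of the lists that were not called are not shown.

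Marker lists of other cells did not all go the way of the members. T cell genes had 2 of 4 tested lower in AML1/ETO LT-HSCs, Trbc1 and Lck (edgeR adjusted p = 0.0202 and 0.0121), with summed CPM of the 9 genes of 4.68 to 17.0 in AML1/ETO LT-HSCs and 51.0 to 262 in control LT-HSCs. Their highest level was in control LT-HSC replicate 3, unlike that of the members. Cd3e, Cd3g, Cd8a and Trac went the other way, with counts in all 3 AML1/ETO LT-HSC libraries and 0 in all 4 control LT-HSC libraries. They stood at 0.061 to 6.26 CPM in AML1/ETO LT-HSCs and were too sparse to be tested. Of plasmacytoid dendritic cell genes 1 of 4 tested, Ly6d, which B cell precursors also express, was lower, and Siglech and Klk1 were at 0 in both LT-HSC groups. Of 7 GMP genes, 4 were higher and 1 lower, with summed CPM of 1200 to 1520 in AML1/ETO LT-HSCs and 69.4 to 414 in control LT-HSCs. Of 8 LT-HSC genes, 0 were higher and 2, Mecom and Ctnnal1, lower, with summed CPM of 513 to 629 in AML1/ETO LT-HSCs and 272 to 1250 in control LT-HSCs. The part of B lineage, plasma, T and GMP cells in the differences of the members was not tested. In GMPs, Sdc1 was at 0 in all 3 AML1/ETO libraries, replicate 3 with its Igha and Jchain included, and at 3.2, 2.69, 5.18 and 3.95 CPM in control libraries (at least 58.7-fold lower, edgeR adjusted p = 0.0126). Tent5c, which stabilises immunoglobulin mRNA in plasma cells, rose in AML1/ETO GMPs, at 66.2, 24.1 and 26.5 CPM, against 5.88, 4.14, 2.98 and 2.67 CPM in control GMPs (log2 fold change 3.33 ± 0.45, edgeR adjusted p = 0.00912). Its highest level was in replicate 1, not in replicate 3.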

How the data were processed

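RNA-seq counts of 14 libraries were analysed. The authors deposited unnormalised whole-number gene counts in 1 table, whose columns carry the sample names. Per the submitters' processing notes, HISAT2 2.0.5, featureCounts 1.5.0-p3 and mm10 were used, in roles not given. The kits were low-input and stranded ones, per the labels' protocols. Members and gene lists were chosen with earlier results of these data known. Genes were filtered by filterByExpr, scaled by TMM and tested with edgeR 4.0.16 (quasi-likelihood, two-sided, Benjamini-Hochberg over all genes tested, called under 0.05) in R 4.3.3, in 7 samples per cell type or all 14. DESeq2 1.42.0, RLE scaling, other filters, replicate blocks and leaving out libraries were alternatives. A group at 0 was set at 3 counts over its libraries. Steps were tested on simulated data. Named were the constant genes, Jchain, the leading V segments of each library and chain, the members at the limit, called members by size, and called genes and defining markers of the lists; other segments were chosen after their values were seen. Coordinates and exon lengths are from GENCODE M21. Shares have exact (Clopper-Pearson) intervals from scipy 1.17.1, and figures used matplotlib 3.10.9.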

Additional observations from a re-analysis of the deposited data

Results flagged for a closer look

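Control LT-HSC replicate 2 lay far above the other 3 control LT-HSC libraries in the immunoglobulin share of counts, at 10.4%. The same library stood out for Ighm at 49200 CPM, Igkc at 22900 CPM, Jchain at 4730 CPM and Igha at 2430 CPM. It also stood out for Ighg3 at 324 CPM, Iglc2 at 515 CPM and Iglc3 at 463 CPM. A sample was singled out when its gap to the nearest other library took up more of the range of the group than Dixon's critical value at the 95% level, which chance passes in about 1 in 20 groups, and these 8 values come from 1 library. Ighv7-1 and Igkv15-103 were not among the genes in which this library stood apart.

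The AML1/ETO effect differed between GMPs and LT-HSCs for 4 members. The log2 difference, GMP minus LT-HSC, was 5.63 for Ighm (edgeR adjusted p = 0.0195), 20.42 for Igkc (0.00735), 16.91 for Jchain (0.00677) and 28.35 for Igha (0.0426). The last 3 are fitted values set by groups at or near 0 counts, and are no estimate of a fold.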

How the results depend on the processing

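In LT-HSCs the number of all genes called was 1791, with 3193 in DESeq2, 525 with the replicate number as a block, 3166 in 1 fit of all 14 samples and 334 to 2376 when 1 library was left out. Members called higher numbered 7, with 3 without a filter on low counts, 0 with the block (adjusted p of Ighv1-23 0.0523) and 1 to 8 when 1 library was left out. Members called lower numbered 11, with 41 in DESeq2, 18 in 1 fit of all samples and 4 to 14 when 1 library was left out. In GMPs all genes called were 1319, with 2928 in DESeq2, 816 without a filter, 112 with the block, 458 in 1 fit of all samples and 131 to 3514 when 1 library was left out. Members called higher in GMPs were 0, with 2 in DESeq2, 2 in 1 fit of all samples and 0 to 2 when 1 library was left out. Members called lower were 1, with 3 in DESeq2, 0 without a filter, 0 with the block, 0 in 1 fit of all samples and 0 to 1 when 1 library was left out. For the difference between the effects, all genes called were 1021, with 2059 in DESeq2, 568 with the block and 471 to 1477 when 1 library was left out. Members called higher were 4, with 32 in DESeq2 and 2 to 4 when 1 library was left out, and members called lower were 0, with 1 in DESeq2 and 0 to 1 when 1 library was left out. For control GMPs against control LT-HSCs, members called higher were 2, with 1 in DESeq2, 0 without a filter, 0 with the block and 0 to 2 when 1 library was left out. Members called lower were 25, with 45 in DESeq2, 52 without a filter and 14 to 48 when 1 library was left out, and all genes called were 3952, with 2660 to 4583 when 1 library was left out. RLE scaling, and library sizes without the members, left every one of these counts within 1.5 times. The cause of these differences was not tested.

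For single members, 281 of the alternative fits kept the call or its absence, 62 lost the call, 17 gained it and 1 was called in the reverse direction. A change of direction with no call in either fit was counted among the 281. The reversed member was Ighv1-34, at a log2 fold change of −2.45 with all libraries. It was 8.53 without control LT-HSC replicate 1, the only control LT-HSC library with counts of it. Values went down to −2.88 without another library, and the replicate block gave 4.33. DESeq2 gave no adjusted p for 8 members in LT-HSCs, Igkc and Jchain among them. Same-numbered libraries had correlated deviations of 0.09 to 0.16 between AML1/ETO LT-HSCs and GMPs, and of −0.08 to 0.04 in the other pairs of groups. In those other pairs the numbers gave no clear sign of pairing the samples. All 3 AML1/ETO numbers correlated best with their own number across LT-HSCs and GMPs. That is a hint of pairing from the data alone, and the main fits took no account of it. With a limit of 10 or 200 summed counts there were 163 or 124 members. GMP libraries held 15620007 to 19403864 counts and LT-HSC libraries 13210952 to 17626822. The part of library size in the member counts was not tested.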
